A study of Xenopus tropicalis with 12 samples.

Results

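The binding of thyroid hormone receptor (TR) to chromatin was compared between T3-treated and untreated wild-type hind limb of *Xenopus tropicalis*. Overlapping peaks of the 6 wild-type libraries, with 1 bp in common as the least overlap, were joined into regions, and a region was kept where at least 2 of the 3 libraries of either treatment had a peak in it. This gave 19269 regions out of 124232 merged regions of the 6 libraries. The same rule gave 22074 of 189159 merged regions over all 12 libraries of the series and 13869 of 93344 over the 6 TRα (-/-) libraries.

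The measurements are ChIP-seq with an antibody against TR, which sequences DNA that comes down with the receptor, and a peak is a stretch with more fragments than its surroundings predict. The 3 T3 libraries came from wild-type tadpoles at stage 54 exposed to 10 nM T3 for 18 h, and the 3 no-T3 libraries from wild-type tadpoles of the same stage that received no T3. Per the sample labels, wild-type and TRα (-/-) tadpoles had the same parents. Several tadpoles were pooled for each sample, and the libraries of a condition are technical replicates, so the spread between them does not cover variation between groups of tadpoles. TRα (-/-) libraries, with and without T3 under the same dose and time, were used only as an independent readout of the wild-type regions. In pooled tissue, binding in fewer cells and weaker binding in each cell cannot be told apart.

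TR is a nuclear receptor that sits on T3 response elements, usually as a heterodimer with the retinoid X receptor. Without T3 it recruits corepressors to its target genes, and with T3 it exchanges them for coactivators. The frog has a TRα and a TRβ gene, TRα is the main receptor before metamorphosis, and the hind limb is among the first organs to respond to the hormone.

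Depth differed between the treatments. After filtering, replicates 1, 2 and 3 with T3 had 1055706, 1825401 and 2307377 fragments, against 3080104, 4188012 and 6119057 for replicates 1, 2 and 3 without T3. The mean depth without T3 was 2.58 times that with T3, and the ranges did not overlap, so that depth and treatment cannot be told apart in these libraries. The lowest summit pileup in a list, the number of fragments stacked at a peak's highest point, was 2, 3 and 3 fragments with T3 and 3, 4 and 5 without T3. Scaled to fragments at the summit per 1000000 fragments of the library (FPM), these minima were 1.89, 1.64 and 1.30 FPM with T3 and 0.974, 0.955 and 0.817 FPM without T3, so a peak of a T3 library had to hold a larger share of its library. A region without a peak is therefore one that was not detected at that depth. The lists name no genes, and regions are given by position on the Xenbase v9.1 genome.

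Most regions were shared between the treatments or seen in 1 library. Of the 124232 merged regions, 100381 (80.8%) had a peak in 1 library only and are not members. With T3, 13448 regions were bound, meaning a peak in at least 2 of 3 libraries, and 15859 were bound without T3. Both treatments had 10038 bound regions in common, which were 52.1% of all members, 74.6% of those bound with T3 and 63.3% of those bound without T3. A further 3410 regions (17.7%) were bound only with T3 and 5821 (30.2%) only without T3.

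The regions bound under one treatment were often present under the other as well. Of the 3410 regions bound only with T3, 1606 (47.1%) had a peak in 1 no-T3 library. Of the 5821 bound only without T3, 3505 (60.2%) had a peak in 1 T3 library. Fewer regions only with T3 than only without T3 were also found in other settings. There were 1114 against 5199 with q below 0.001, and 1025 against 4372 with all 3 libraries required. With equal numbers of peaks there were 1897 against 6474, and with a summit pileup of at least 5 there were 994 against 7046. The order of these counts turned round where 1 library was enough, with 74380 regions only with T3 and 30121 only without T3. Leaving out 1 no-T3 library, with 2 still required, also turned it round, giving 4710 to 5367 regions only with T3 and 2777 to 3436 only without T3, a step that can only lower the number without T3.

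**Figure D1:**
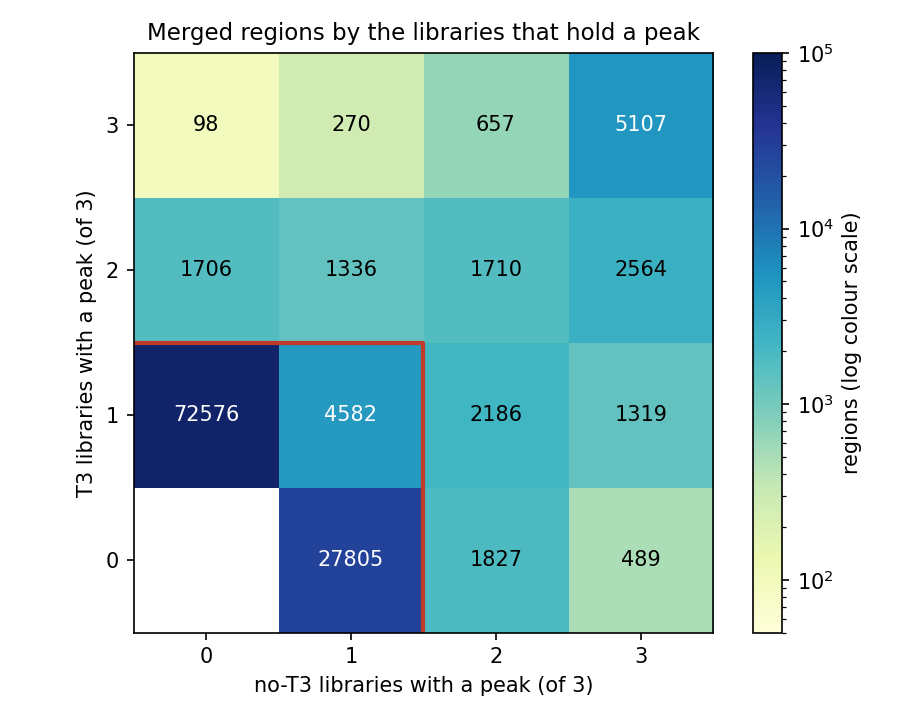
Number of merged regions by how many of the 3 T3 libraries (vertical axis) and of the 3 no-T3 libraries (horizontal axis) had a peak, with colour on a log scale. The red line separates the 19269 members from regions below the rule, and the 5107 regions with a peak in all 6 libraries far outnumber the 98 and 489 in the corners.

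Complete separation of the libraries was rare. A peak in all 3 T3 libraries and in no no-T3 library was seen in 98 regions (0.509% of members). The reverse, a peak in no T3 library and in all 3 no-T3 libraries, was seen in 489 regions (2.54% of members). A peak in all 6 libraries was seen in 5107 regions (26.5% of members). Most of the 98 regions were not among the strongest peaks of their libraries. Their median percentile of q value was 57.8 (averaged over the 3 T3 libraries, 100 being the strongest peak of a list), and 4 of them were above the 90th percentile. The 489 regions had a median percentile of 52.5 over the no-T3 libraries, and 10 of them were above the 90th. A peak of the other treatment lay within 500 bp of 7 of the 98 regions (7.14%) and of 53 of the 489 (10.8%).

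The share of regions detected under the other treatment was larger among stronger regions. Of the 6132 regions with a peak in all 3 T3 libraries, those at or below the 50th percentile were bound without T3 in 70.9% of cases, those between the 80th and 90th in 97.2%, and the 601 regions above the 98th in 100%. Of the 9479 regions with a peak in all 3 no-T3 libraries, the corresponding shares bound with T3 were 50.3% and 93.9%, and 98.3% of the 470 regions above the 98th percentile. In each of the 8 rank classes the share bound with T3 among regions ranked without T3 was below the share bound without T3 among regions ranked with T3. These shares describe detection at unequal depth, and the part of depth in them was not tested.

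**Figure D2:**
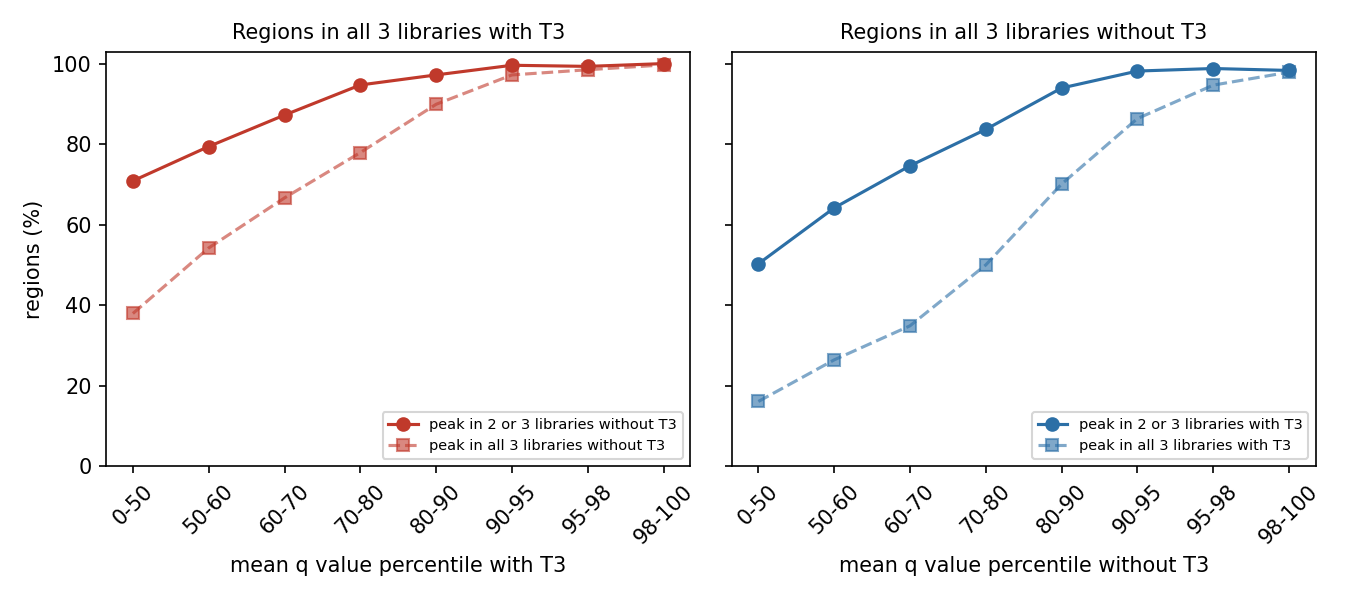
Share of regions (vertical axis, percent) with a peak in at least 2 (solid) or all 3 (dashed) libraries of the other treatment, by mean percentile of q value (horizontal axis), for regions in all 3 T3 libraries (left) and in all 3 no-T3 libraries (right). Both solid lines climb to at least 98.3% above the 98th percentile, and the left one starts higher, at 70.9% against 50.3%.

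The chromosomes did not stand apart. Over the 10 chromosomes, regions bound only with T3 made up 16.0% to 19.0% of members, those bound only without T3 28.3% to 31.8%, and those bound under both 49.7% to 54.6%. Regions bound under both treatments were also longer, with a median merged length of 875 bp, than those bound only with T3 (525 bp) or only without T3 (576 bp), and merging more peaks makes a region longer.

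Among the 5107 regions with a peak in all 6 libraries, the 5 with the strongest peaks are given first. That they were bound under both treatments follows from this choice. At chr8:23529074-23530255 the summit pileup was 847, 1528 and 2018 fragments in the T3 libraries, against 2160, 2814 and 3452 in the no-T3 libraries. This was 838 ± 36.1 FPM with T3 and 646 ± 72.2 FPM without T3 (SD, n = 3 technical replicates each). All 6 libraries had the summit at 485 to 489 bp from the start of the region, and another strong region, chr8:23523128-23524073, lies on the same chromosome close before it. Its pileup was 588 ± 15.7 FPM with T3 and 379 ± 21.6 FPM without T3, and the libraries of the treatments did not overlap.

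The other leading regions overlapped more. At chr5:35928540-35930451 the pileup was 935, 1752 and 2033 fragments with T3, against 2445, 2980 and 3584 without T3, or 909 ± 44.2 and 697 ± 105 FPM. At chr10:16969893-16970789 it was 578 ± 68.8 FPM with T3 and 532 ± 47.3 FPM without T3. At chr4:52501688-52502272 it was 299 ± 37.8 FPM with T3 and 264 ± 44.0 FPM without T3. In the chromosome 10 and chromosome 4 regions the values of the treatments overlapped, whereas in the chromosome 5 region every T3 library was higher. None of the 5 regions passed the limma test for pileup relative to the other shared regions (adjusted p from 0.75 to 0.96).

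At the 5107 regions with a peak in all 6 libraries, the scaled summit pileup was higher with T3. The library medians were 5.68, 6.03 and 5.63 FPM with T3, against 4.22, 4.06 and 3.76 without T3. The means were 5.78 ± 0.214 with T3 and 4.01 ± 0.234 without T3 (SD, n = 3 each), a ratio of 1.44. The ranges did not overlap, and the exact two-sided permutation test gave p = 0.1, the smallest that 3 libraries against 3 allow.

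The ratio was larger among lower-ranked regions. In the 888 regions at or below a mean percentile of 70 it was 1.69, in the 2220 regions between 70 and 90 it was 1.44, and in the 263 regions above the 99th percentile it was 1.30. In that top class the medians were 31.3, 30.7 and 29.5 FPM with T3, against 26.0, 22.9 and 21.2 without T3, which again did not overlap (exact permutation test, p = 0.1). The higher scaled minimum pileup of the T3 libraries moved with this difference, and its part was not tested.

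**Figure D3:**
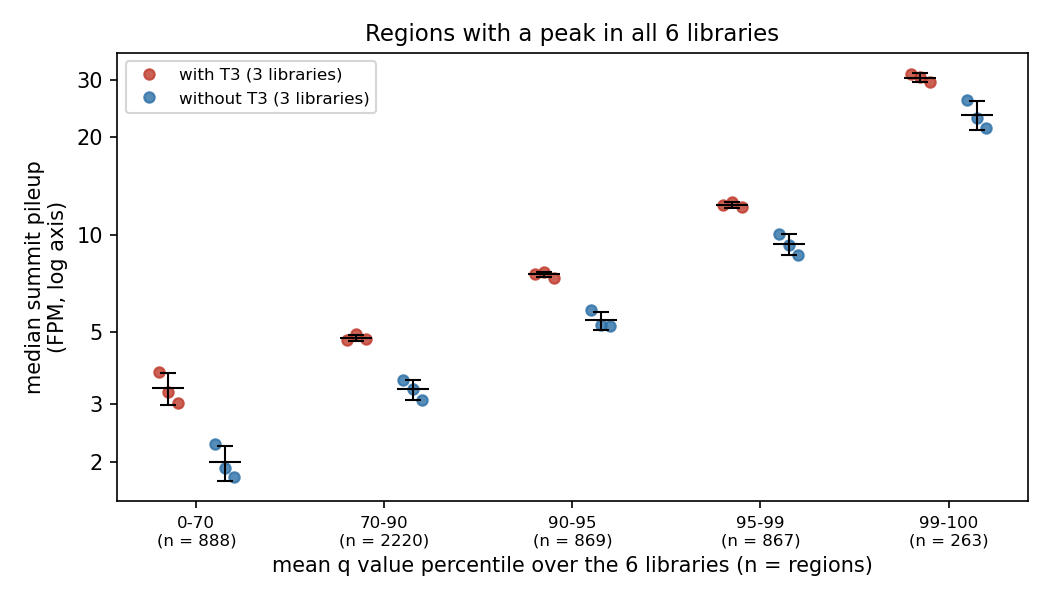
Median summit pileup (vertical axis, FPM, log axis) of each library at the 5107 regions with a peak in all 6 libraries, by rank class (horizontal axis), with dots for libraries and black bars for the mean and SD of 3. The T3 libraries are above the no-T3 libraries in every class, by 1.69 times in the lowest and 1.30 times in the highest.

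On the authors' own scales the direction depended on the measure. The fold enrichment of a peak, its pileup over the local background, had medians of 5.46, 6.98 and 7.51 with T3 and 7.83, 8.08 and 9.22 without T3 over the 5107 regions, without overlap (exact permutation test, p = 0.1). Ranked within each library, the same values had median percentiles of 91.5, 89.3 and 91.3 with T3 and 88.7, 86.1 and 86.2 without T3 (p = 0.1, exact permutation test). The percentile of the q value behaved alike, at 91.1, 89.8 and 91.9 with T3 and 89.1, 86.7 and 87.0 without T3. The T3 lists are longer, and the part of list length in these percentiles was not tested. When weaker peaks were dropped (q below 0.001), 3239 regions had a peak in all 6 libraries, so the regions compared also changed. Over these the median difference in the normal score of the fold enrichment percentile was -0.12 with T3 relative to no T3. With all peaks it was 0.16 over the 5107 regions. The T3 libraries held 38480 ± 4907 peaks and the no-T3 libraries 25744 ± 3328 (exact permutation test, p = 0.1).

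No shared region passed the test for a change in rank. With limma, fitted to the normal scores of the percentiles of fold enrichment, 0 of 5107 regions were higher with T3 (0%) and 0 lower (0%) at an adjusted p of 0.05, while 452 had an unadjusted p under 0.05. For the percentile of the q value, 0 were higher (0%) and 0 lower (0%), and 414 had an unadjusted p under 0.05. The smallest adjusted p values were 0.405 and 0.219. A region can miss this threshold and still separate, as did chr4:108657009-108658343, picked out after its values were seen. Its percentile of fold enrichment was 8.77, 27.9 and 22.5 with T3, against 91.3, 85.3 and 77.8 without T3 (limma, unadjusted p = 0.000177, adjusted p = 0.405). The T3 peaks there held 2, 3 and 3 fragments, the lowest summit pileup of those lists. Their summits were 101, 211 and 557 bp from the start of the region, against 933, 903 and 604 bp without T3.

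Peak length was tested the same way on the log2 scale. Over the 5107 regions, 0 were longer (0%) and 0 shorter (0%) with T3, and 339 had an unadjusted p under 0.05. The median length in a library was 539, 655 and 709 bp with T3 and 696, 722 and 784 bp without T3, so the ranges overlapped. The length of a peak moves with depth and fragment size, and over whole lists the median was 251 ± 39.9 bp with T3 and 333 ± 70.9 bp without T3 (exact permutation test, p = 0.3).

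The T3 libraries resembled each other no more than they resembled the no-T3 libraries. Over the 5107 regions, the Spearman correlation of fold enrichment was 0.584 to 0.675 between T3 libraries, 0.602 to 0.747 between a T3 and a no-T3 library, and 0.774 to 0.822 between no-T3 libraries. The median distance between the summits of a pair of libraries was 98 to 113 bp, 72 to 104 bp and 57 to 72 bp for the same kinds of pairs. These are descriptions over 5107 regions that share chromatin samples and depth, and depth differed along with treatment.

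The 6 best-ranked regions seen only with T3 held 5 to 30 fragments at the summit in a T3 library. At chr3:129191263-129191529 the T3 libraries had summit pileups of 10, 29 and 30 fragments, or 9.47, 15.9 and 13.0 FPM. No no-T3 library had a peak there, although the nearest peak of no-T3 replicate 2 was 7 bp away. At chr7:85789412-85789793 they had 10, 18 and 13 fragments, and the nearest no-T3 peak was 33113 bp away. At chr2:135400442-135400732 they had 7, 21 and 20 fragments, with the nearest no-T3 peak at 19028 bp. The chromosome 7 and chromosome 2 regions thus had nothing near them in the deeper no-T3 libraries, and neither had a peak in any TRα (-/-) library.

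The next regions were weaker. At chr4:90575652-90575883 the T3 libraries had 8, 15 and 13 fragments, and a peak of no-T3 replicate 1 lay 3 bp away. At chr8:1119320-1119818 they had 5, 21 and 13 fragments, and the TRα (-/-) T3 libraries had 7, 8 and 13 fragments there, while no TRα (-/-) no-T3 library had a peak. At chr9:16608861-16609225 the T3 libraries had 8, 6 and 11 fragments. The chromosome 8 region thus had a peak in all 6 T3 libraries of the series and in none of the 6 no-T3 libraries. The peak of TRα (-/-) T3 replicate 2 overlapped this region of 499 bp but had its summit outside, at 543 bp from its start. The nearest wild-type no-T3 peak was 1112 bp away. Of the 98 regions, 2 repeated the wild-type pattern in the TRα (-/-) libraries, and 1 showed the opposite pattern there. The share of all members with either TRα (-/-) pattern was not computed, so these counts say nothing particular about the 98 regions. The opposite pattern was limited by TRα (-/-) no-T3 replicate 2, which had a peak in 4 of the 98 regions.

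The 6 best-ranked regions seen only without T3 held 17 to 63 fragments at the summit in a no-T3 library. At chr2:24818945-24819150 no T3 library had a peak and the no-T3 libraries had 25, 30 and 56 fragments, or 8.12, 7.16 and 9.15 FPM, and the nearest T3 peak was 8542 bp away. At chr5:145715947-145716165 the no-T3 libraries had 19, 37 and 63 fragments, and at chr3:5353672-5353995 they had 19, 28 and 34, again with no peak in any T3 library. The chromosome 2 and chromosome 3 regions had no peak in any TRα (-/-) library either. The chromosome 5 region, by contrast, had 17 and 51 fragments in the TRα (-/-) T3 libraries of replicates 1 and 3, and 16 and 38 in the TRα (-/-) no-T3 libraries of the same numbers.

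Of the remaining 3, chr3:129889905-129890184 had 17, 29 and 35 fragments without T3, chr10:34909398-34909682 had 20, 20 and 35, and chr7:17087615-17088104 had 18, 22 and 31. None had a peak in a wild-type T3 library. The chromosome 7 region had a peak in all 3 TRα (-/-) T3 libraries, with 8, 4 and 27 fragments, and in 1 TRα (-/-) no-T3 library, with 28. Of all 489 regions, 0 had a peak in the 3 TRα (-/-) no-T3 libraries alone, and 6 had one in the 3 TRα (-/-) T3 libraries alone. These counts cannot be compared directly, and the share of all members with either pattern was not computed. TRα (-/-) no-T3 replicate 2 had a peak in 32 of the 489 regions, and only these could show the first pattern. The TRα (-/-) T3 libraries had a peak in 126 to 222.

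Strong no-T3 regions missing from a T3 library were looked at one by one, after their values had been seen. Above the 98th percentile, 0 of the 601 regions ranked with T3 were unbound without T3, while 8 of the 470 ranked without T3 were unbound with T3, and each of these 8 had a peak in exactly 1 T3 library. At chr3:131794174-131794350 the pileup was 372 fragments in T3 replicate 1, with no peak in T3 replicates 2 and 3, against 914, 1127 and 1218 in the no-T3 libraries. No TRα (-/-) library had a peak there. Without T3 its mean percentile of q value, 99.981, was as high as the 99.977 of the chr4:52501688-52502272 region above. The region is 177 bp long, and its pileup was 352 FPM in T3 replicate 1 and 297, 269 and 199 FPM in the no-T3 libraries.

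The other 7 were lower. At chr1:71652848-71653056 the pileup was 43 fragments in T3 replicate 2 alone, against 219, 328 and 256 without T3. At chr4:114925050-114925303 it was 27 fragments in T3 replicate 3 alone, against 133, 185 and 181 without T3. At chr3:53245461-53245707 it was 37 fragments in T3 replicate 3 alone, against 89, 173 and 161 without T3. In these 3 regions the T3 value, 23.6, 11.7 and 16.0 FPM in that order, was below every no-T3 value of the same region. At chr3:133621830-133622583 T3 replicate 1 had 2.84 FPM, also below the 14.3, 15.3 and 11.3 FPM without T3. That T3 peak held 3 fragments and was at another position. Its summit was 613 bp from the start of the region, against 32, 34 and 24 bp without T3. The remaining 3 did not show this order. At chr4:126418029-126418373 the value of T3 replicate 1, 22.7 FPM, was above the 15.6, 12.2 and 9.97 FPM of the no-T3 libraries. At chr10:5098610-5098800 T3 replicate 2 had 7.67 FPM, against 18.8, 20.5 and 7.35 FPM without T3. At chr7:12447957-12448216 it had 11.5 FPM, against 9.42, 13.6 and 11.6 FPM without T3. The values of the chromosome 10 and chromosome 7 regions lay within the no-T3 range. Above the 99th percentile, T3 replicates 1, 2 and 3 had 422, 330 and 400 regions. Of these, 5, 5 and 2 were in neither of the other T3 libraries. No-T3 replicates 1, 2 and 3 had 295, 237 and 240 such regions. Of these, 5, 0 and 0 were in neither of the other no-T3 libraries. The T3 counts include the chromosome 3 region of the paragraph before, chr4:126418029-126418373 and chr1:71652848-71653056. They are therefore not independent of the regions described here, and the cause of the isolated peaks was not tested.

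Set against the other shared regions, 10 regions differed in summit pileup. With limma on log2 FPM, centred on each library's median over the 5107 regions, 2 were higher with T3 (0.0392%) and 8 lower (0.157%), and 388 had an unadjusted p under 0.05. Without the centring, 192 were higher (3.76%) and 6 lower (0.117%). The centring removes the difference of 0.53 on the log2 scale between the medians of the treatments. The calls were sensitive to single libraries: without T3 replicate 3, no-T3 replicate 1 or no-T3 replicate 2 there were 0 of either kind, and without no-T3 replicate 3 there were 0 higher and 2 lower. Each of the 10 lost its call in at least 1 of the 6 fits without 1 library, and 4 lost it in every such fit, namely chr4:35071277-35071616, chr4:108657009-108658343, chr7:663397-664207 and chr2:1919023-1919529. No region of the 10 passed the test on the percentile of fold enrichment.

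Of the 2 higher regions, chr1:135033035-135033755 had 18, 34 and 59 fragments with T3, against 10, 14 and 17 without T3. This was 20.4 ± 4.53 FPM with T3 and 3.12 ± 0.302 FPM without T3 (SD, n = 3 each), a ratio of 6.54 and a centred log2 difference of 2.16 ± 0.29 (SE, limma adjusted p = 0.0084). At chr4:35071277-35071616 the pileup was 8, 16 and 13 fragments with T3 and 5, 4 and 11 without T3, or 7.33 ± 1.58 and 1.46 ± 0.445 FPM, a ratio of 5.02 (limma adjusted p = 0.042). The call of the chromosome 4 region did not hold in any fit without 1 library (limma adjusted p from 0.065 to 0.24), and for the chromosome 1 region these p values were 0.020 to 0.12. In both regions every T3 library was above every no-T3 library in FPM, which is not independent of calling them on these values.

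These 2 regions showed the same order in the TRα (-/-) libraries, which the calls did not use. The chromosome 1 region had 8.51, 13.1 and 10.2 FPM in the TRα (-/-) T3 libraries, against a peak of 2.33 in 1 of the 3 TRα (-/-) no-T3 libraries. The chromosome 4 region had 4.25, 9.28 and 5.96 FPM, against a peak of 1.67 in 1 of 3. The peak of 4.25 FPM overlapped this region but had its summit outside it, at -88 bp from its start. The wild-type T3 summits were at 149 to 171 bp. The no-T3 libraries of TRα (-/-) include one of 834029 fragments, and whether depth bears on the missing peaks was not tested. The order is also not particular to these 2 regions. At chr8:23523128-23524073, for example, the TRα (-/-) libraries had 626, 698 and 686 FPM with T3, against 323, 235 and 294 without T3. In each of the 5 strongest shared regions every TRα (-/-) T3 library was above every TRα (-/-) no-T3 library. The share over all shared regions was not computed.

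Of the 8 lower regions, chr9:3883750-3884328 had the largest difference. Its pileup was 7, 15 and 12 fragments with T3, against 92, 122 and 100 without T3. This was 6.68 ± 1.51 FPM with T3 and 25.1 ± 7.61 FPM without T3, 3.76 times as much without T3, and the centred log2 difference was -2.41 ± 0.31 (SE, limma adjusted p = 0.0084). At chr6:82790519-82790771 the pileup was 11, 26 and 13 fragments with T3, against 97, 151 and 141 without T3, and 2.99 times the FPM without T3 (limma adjusted p = 0.015).

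A further pair were among the strong regions of every library. At chr8:82453560-82454429 the pileup was 17, 31 and 32 fragments with T3, against 154, 216 and 180 without T3 (2.79 times the FPM without T3). At chr5:6443932-6444569 it was 24, 63 and 66 fragments with T3, against 244, 381 and 374 without T3 (2.69 times as much). Both were above the 98th percentile of fold enrichment in each of the 6 libraries, though every T3 percentile was below every no-T3 percentile. At the chromosome 8 region they were 98.77, 98.92 and 98.45 with T3, against 99.76, 99.75 and 99.36 without T3. At the chromosome 5 region they were 99.52, 99.55 and 99.63 with T3, against 99.78, 99.67 and 99.71 without T3. The other 4 regions, chr5:1060195-1061004, chr2:1919023-1919529, chr7:663397-664207 and chr4:108657009-108658343, had 2.09 to 2.61 times the FPM without T3. At chr4:108657009-108658343 the T3 peaks, of 2, 3 and 3 fragments, were at the lowest pileup of their lists. In all 8 every T3 library was below every no-T3 library in FPM. The regions were called on these same values after centring, so this separation is not a further result.

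In the TRα (-/-) libraries these 8 regions did not show the wild-type order. At chr9:3883750-3884328 the pileup was 18.1, 19.6 and 7.36 FPM in the TRα (-/-) T3 libraries, against 3.13, 10.8 and 5.67 in the TRα (-/-) no-T3 libraries. At chr7:663397-664207 the libraries with a peak averaged 30.3 FPM with T3 and 14.5 FPM without T3. The mean of the libraries with a peak was higher with T3 in 7 of the 8, and chr5:1060195-1061004 was the exception, at 4.93 FPM with T3 and 6.07 without T3. The mean of 6.07 covers only TRα (-/-) no-T3 replicates 1 and 2, at 3.76 and 8.39 FPM. TRα (-/-) no-T3 replicate 3, with 3000220 fragments, had no peak at this region, so the exception depends on leaving that library out. A higher TRα (-/-) value with T3 is not particular to these regions. At chr8:23529074-23530255, the strongest shared region, it was 1173, 1089 and 1093 FPM with T3, against 504, 390 and 440 without T3. The share of all shared regions with this order was not computed, and the TRα (-/-) values were not centred. The difference between the genotypes at these regions was not tested.

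**Figure D4:**
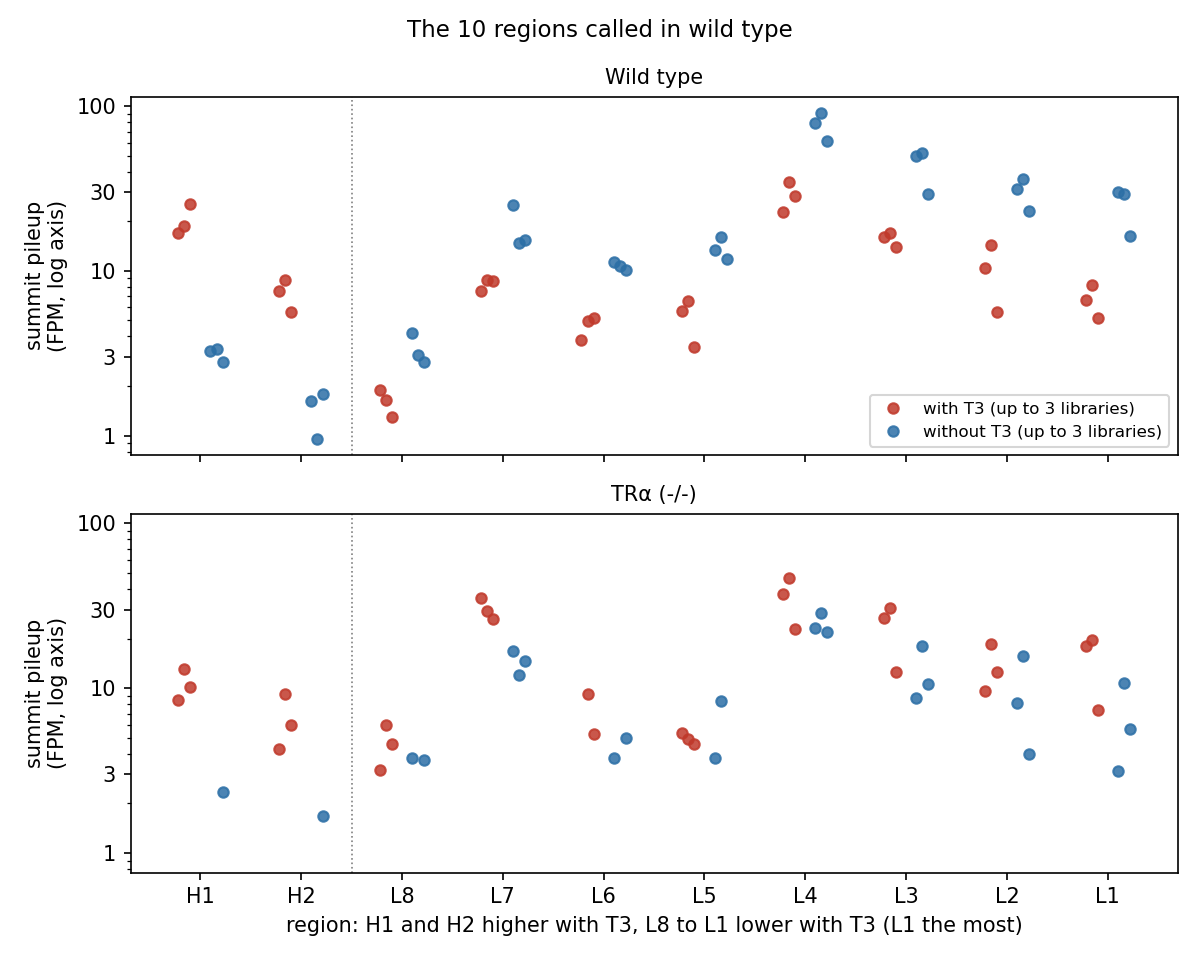
Summit pileup (vertical axis, FPM, log axis) of each library with a peak at the 10 regions called in wild type (horizontal axis), in wild type (top) and TRα (-/-) (bottom), with H1 and H2 on chromosomes 1 and 4 and L1 on chromosome 9. In wild type the treatments separate without overlap in every region, on the values that, after centring, were used to call the regions. In TRα (-/-) the T3 libraries keep the higher side at H1 and H2 and have the lower mean of libraries with a peak only at L5, on chromosome 5. At L5 the TRα (-/-) no-T3 library of replicate 3 had no peak. The TRα (-/-) values are not centred.

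The position of the summit shifted in 9 of the 5107 regions (0.176%), and 221 had an unadjusted p under 0.05. At chr1:169725462-169727214 the summit was 1221, 1285 and 1359 bp from the start of the region with T3, against 88, 170 and 169 bp without T3. The shift of 1146 ± 46.9 bp (SE) had an adjusted p of 0.0089 with limma. At chr4:9551145-9553544 the summit was at 833, 748 and 697 bp with T3, against 1600, 1632 and 1556 bp without T3. At chr10:230473-232322 it was at 1595, 1423 and 1467 bp with T3, against 741, 733 and 738 bp without T3. In each of these regions the summits of a treatment lay closer to each other than to any summit of the other treatment. The regions were chosen as the largest called shifts, so this separation is not a further result.

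These regions are 1753 to 2400 bp long and low, with 6 to 16 fragments at the summit with T3 and 12 to 31 without T3. They can hold more than 1 peak: at the chromosome 1 region T3 replicate 1 and no-T3 replicates 1 and 2 had 2 peaks each, and the summit is that of the better peak. In the TRα (-/-) libraries the summit given is that of the first peak overlapping the region, not of the better one. The TRα (-/-) and wild-type positions are thus not measured alike where a region holds several peaks. Read in this way, the TRα (-/-) summits were more scattered. At the chromosome 1 region they were at 1366 and 858 bp with T3, and at 1177 and 1404 bp without T3, all far from the wild-type no-T3 position. At the chromosome 4 region they were at 1672, 66 and 1616 bp with T3, and at 498, 751 and 942 bp without T3. Here 2 of the 3 T3 summits lay nearer the wild-type no-T3 position, and the no-T3 summits nearer the wild-type T3 position. At the chromosome 10 region they were at 1366, 1383 and 777 bp with T3, against 798 bp and 86 bp before the start of the wild-type region without T3. There 2 of the 3 T3 summits lay nearer the wild-type T3 position and no no-T3 summit did, the same order as in wild type. With the replicate block 0 regions were called, and leaving out 1 library gave 0 to 21.

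The regions bound under 1 treatment in wild type were then read in the TRα (-/-) libraries. Of the 3410 regions bound only with T3 in wild type, 16.6%, 22.7% and 27.5% had a peak in the TRα (-/-) T3 libraries, against 13.6%, 2.55% and 20.6% in the TRα (-/-) no-T3 libraries. Of the 5821 bound only without T3, 24.9%, 34.7% and 42.4% had one in the TRα (-/-) T3 libraries, against 23.1%, 5.24% and 37.3% in the TRα (-/-) no-T3 libraries. Every TRα (-/-) library, whatever its treatment, thus held a larger share of the wild-type regions bound only without T3. The wild-type libraries that define those regions were the deeper ones, and the part of depth in this was not tested.

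The share of regions bound only with T3 minus that of regions bound only without T3 was -11.7 ± 3.31 percentage points in TRα (-/-) T3 libraries and -9.62 ± 7.01 in TRα (-/-) no-T3 libraries (SD, n = 3 each). The difference of -2.10 points was within the spread between libraries (exact two-sided permutation test, p = 0.7). It became 0.553 with 4645 peaks from each of the 12 libraries, and 1.37 without TRα (-/-) no-T3 replicate 2, the library of 834029 fragments. For comparison, the 10038 regions bound under both treatments had a peak in 62.8% to 82.8% of cases in the TRα (-/-) T3 libraries and in 27.2% to 74.7% in the TRα (-/-) no-T3 libraries.

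**Figure D5:**
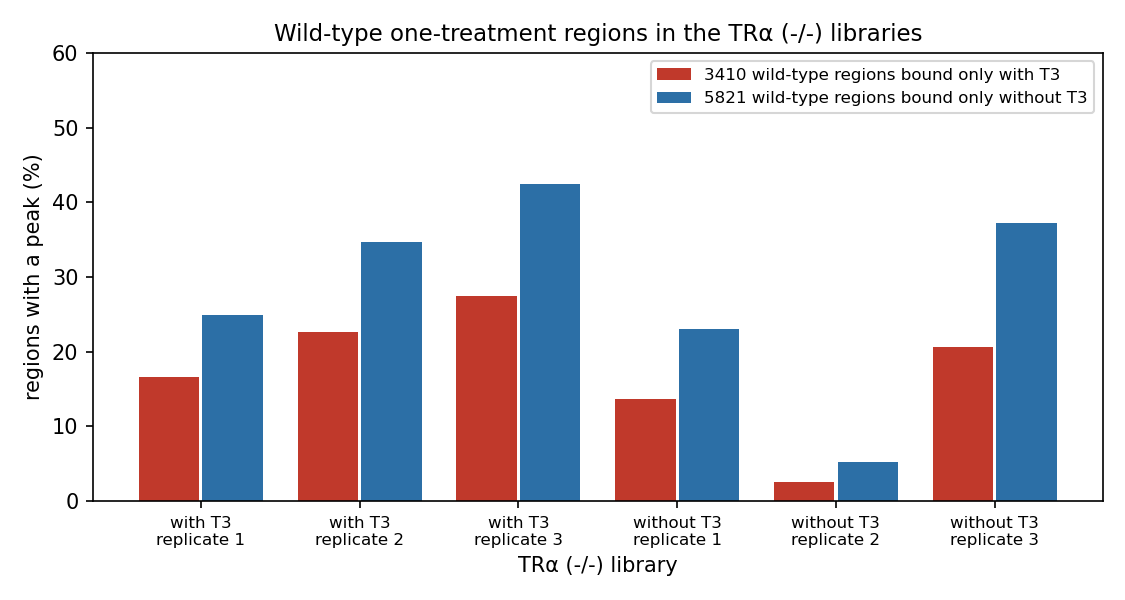
Share of wild-type regions (vertical axis, percent) with a peak in each TRα (-/-) library (horizontal axis), for the 3410 regions bound only with T3 (red) and the 5821 bound only without T3 (blue) in wild type. The blue bar is the higher one in each of the 6 libraries, and treatment of the TRα (-/-) tadpoles does not reverse the order.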

How the data were processed

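ChIP-seq peak lists of 12 libraries were used, 6 of them wild type. Reads had been mapped by the authors with Bowtie2 2.3.4.1 to Xenbase v9.1, redundant reads dropped with Samtools, and peaks called library by library with MACS2 2.1.1.20160309, with no control and a q value cutoff of 0.05. The deposited values are peak positions, the summit pileup (a raw signal, counted in fragments), the −log10 of the p-value and q-value, and fold enrichment, a ratio to the local background. Depth is the number of fragments in the authors' headers. 1055706 to 6119057 fragments per wild-type library limit detection.

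Groups and replicate numbers came from the sample labels. Peaks were merged with Python 3.11.15 (numpy 2.4.6, pandas 2.3.3, scipy 1.17.1). Where a wild-type library had several peaks in a region, the one with the best q value was used. For the pileup and summit of a TRα (-/-) library, the first overlapping peak by position was used instead. Percentiles were taken within a library. Shared regions were tested with limma 3.58.1 in R 4.3.3 (Benjamini-Hochberg over all 5107), and library values with exact two-sided permutations. Merging and fits were tested on simulated data.

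Alternatives were q below 0.01 or 0.001, merging within 500 bp, 50% of a region covered, 23668 peaks per library, a pileup of at least 5, 1 or all 3 libraries required, a replicate block and omission of each library. For the TRα (-/-) readout the equal lists held 4645 peaks per library. The pileup checks at shared regions were added after seeing the data. Named regions were the 6 best-ranked of each one-sided pattern, the 5 strongest in all 6 libraries and the 3 largest called summit shifts; regions called in pileup or above the 98th percentile without T3 were added after their values were seen. Members, lists and tests were chosen with earlier results of these data known. No genes, motifs or sequences are given, because annotation and sequence of that genome version were not used here.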

Additional observations from a re-analysis of the deposited data

How the results depend on the processing

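Counts of bound regions moved with the stringency of the peaks. With q below 0.001, 7757 regions were bound with T3, 6643 under both treatments and 1114 only with T3, and with q below 0.01 the number only with T3 was 2044. With 50% of a region covered, 8924 were bound with T3 and 6044 under both. With a summit pileup of at least 5, 8527 were bound with T3 and 994 only with T3, and with equal numbers of peaks 1897 only with T3. With 1 library sufficient, 94111 were bound with T3, 49852 without T3 and 19731 under both, with 74380 only with T3 and 30121 only without T3. With all 3 required, 6132 were bound with T3, 9479 without T3, 5107 under both and 1025 only with T3. Apart from the setting with 1 library sufficient, 4372 to 7046 regions were bound only without T3 in these settings. The regions in all 3 T3 libraries and no no-T3 library numbered 46 with q below 0.01, 30 with q below 0.001, 45 with equal numbers of peaks and 13 with the pileup minimum, under which the reverse pattern numbered 763.

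Leaving out 1 library or 1 replicate number gave 7553 to 13423 regions bound with T3, 5591 to 8706 under both, 1152 to 5367 only with T3 and 2777 to 9390 only without T3. The 3-against-0 pattern then covered 166 to 933 regions, and the reverse 752 to 1864, since fewer libraries have to concur.

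For the shared regions, summit pileup gave 2 higher and 8 lower regions where the fold enrichment percentile gave 0. Without the centring there were 192 higher and 6 lower. Leaving out 1 library gave 0 to 2 higher and 0 to 6 lower regions, 0 to 2 shorter peaks and 0 to 21 shifted summits, and q below 0.001 gave 1 longer peak. The difference in peaks per library was -2018 with q below 0.001 and -6474 with a pileup of at least 5, against 12736 as deposited, and the difference in median length was 30.3 bp with that pileup, against -81.7 bp. The TRα (-/-) readout was 0.553 points with 4645 peaks per library and lay between -5.64 and 1.37 points without 1 library. The cause of these changes was not tested.

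Whether replicate numbers pair the libraries is not settled. In the authors' headers the sequencing numbers were 6, 6 and 18 for T3 replicates 1, 2 and 3, and 5, 5 and 17 for no-T3 replicates 1, 2 and 3. Depth rose from replicate 1 to replicate 3 in both treatments. The correlations of deviations between same-numbered libraries were small and positive, at 0.114, 0.0179 and 0.0786. Each T3 library had its highest Spearman correlation of fold enrichment with a no-T3 library at the same number (0.629, 0.710 and 0.747). For T3 replicate 2 the margin over no-T3 replicate 3 was slight (0.7104 against 0.7100). With the replicate block, 0 summits were called, 1 region was higher and 7 lower in pileup (of the 10 regions called without it 7 kept the call, and the chr4:35071277-35071616, chr4:108657009-108658343 and chr7:663397-664207 regions had adjusted p of 0.057, 0.057 and 0.059 with limma), and the pileup difference over all shared regions had p = 0.25 (exact sign-flip test, the smallest 3 pairs allow). The replicate block left the size of the 3 named summit shifts unchanged. With it, the chromosome 1, 4 and 10 shifts had adjusted p of 0.14, 0.27 and 0.32 with limma. Their direction held in each fit without 1 library, which was fixed in advance because their summits did not overlap between treatments.

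Depth of 1055706 to 6119057 fragments limits what a missing peak means. The libraries are technical replicates of pooled tadpoles, so p-values measure only the spread between libraries.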
